A study of Mus musculus with 10 samples.

Results

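Microglia sense extracellular nucleotides, and the genes described here encode receptors for them and enzymes that break them down. They are 9 of the 53715 genes in the count tables. They were taken by gene symbol. They are the P2Y receptors P2ry12, P2ry13 and P2ry6, the related receptor Gpr34, the ATP-gated channels P2rx4 and P2rx7, the adenosine receptor Adora3, and the surface enzymes Entpd1 (CD39) and Nt5e (CD73). RNA came from CD11b+ cells separated with magnetic beads from the midbrain (Mdb) and the striatum (Str) of untreated C57BL/6 mice aged 3 months, and the labels give no transgene or agent for any group. In 2 independent experiments, Exp 1 (the pilot) held 2 libraries per region, and Exp 2 held 2 libraries per region whose labels name a single region. Another 2 libraries of Exp 2 carry one region in the title and the other in the name of the deposited table. They enter no main comparison and appear only in alternatives that place them by title or by that name. The study took both regions from the same mice, but the labels do not say which libraries share a mouse, and in Exp 2 the animal numbers in the names of the tables differ from the replicate numbers in the titles. The libraries were therefore not paired, and p-values measure the spread between these libraries. The beads take any CD11b+ cell, so monocytes, neutrophils and macrophages of the brain borders can be among the cells. In the study's own flow cytometry of an aliquot, nearly all cells were CD45low microglia and few were CD45high myeloid cells.

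Damaged or active cells release ATP, which opens the P2X channels P2rx4 and P2rx7. Entpd1 cleaves ATP and ADP to AMP, and Nt5e cleaves AMP to adenosine, the ligand of Adora3. ADP made on the way is the ligand of P2ry12 and P2ry13, UDP that of P2ry6, and P2ry12 is known for steering microglial processes toward injured tissue and as a gene that resting microglia express and that activated microglia lower.

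The depth of the 8 libraries compared ranged from 575709 counts (Exp 2 Str replicate 3) to 8463782 counts (Exp 1 Str replicate 2), so that 3 counts stood for 0.355 to 5.21 CPM (counts scaled to a fixed library total). Values below are CPM after TMM scaling, which corrects library sizes for differences in composition, and intervals are 95% confidence intervals of the limma fit. All 9 microglia markers in the tables were lower in the midbrain in the joint fit (median log2 difference -0.62), with a summed level of 6641 to 8992 CPM in Mdb and 8894 to 12990 CPM in Str. Markers of border macrophages (8 of 8 higher in Mdb, 1498 to 2674 against 336 to 877 CPM), monocytes (8 of 8, 282 to 2988 against 123 to 267 CPM) and neutrophils (8 of 8, 734 to 6052 against 270 to 526 CPM) went the other way, as did all 12 immediate early genes (19790 to 24440 against 11130 to 21100 CPM). No defining marker of these lists was at 0. Their part in the differences below was not tested. In these bulk samples fewer cells of a type and less RNA per cell cannot be told apart.

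The 2 ADP receptors lie next to each other on chromosome 3, both on the minus strand, with 5.39 kb between them in GRCm38 (P2ry13 at 59207892-59210882 and P2ry12 at 59216272-59262871). P2ry12 shares 9 exon bases with Med12l on the other strand, and the counting ignored strand. Their profiles over the 8 libraries, centred within experiments, were also near each other, as described below, so the promoters of this pair are shown. They did not move together in every group. In Exp 1 Str, P2ry12 stood at 1722 and 1254 CPM and P2ry13 at 446 and 449 CPM. The sequences are those of RefSeq on GRCm38.p6, read 5′ to 3′ on the gene's strand, from 250 bases before to 50 bases after the RefSeq start, and 7 of the 9 genes had such a window. For P2ry12 that start lies outside the gene as counted. Its window begins at 59262936 and the counted gene ends at 59262871, so they share no base. Capitals mark GGAAGT in P2ry12 (chr3:59262936-59263235) and GAGGAAG in P2ry13 (chr3:59210833-59211132), which are letters found in binding sites of ETS factors such as PU.1, the factor that directs myeloid cells.

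P2ry12 promoter: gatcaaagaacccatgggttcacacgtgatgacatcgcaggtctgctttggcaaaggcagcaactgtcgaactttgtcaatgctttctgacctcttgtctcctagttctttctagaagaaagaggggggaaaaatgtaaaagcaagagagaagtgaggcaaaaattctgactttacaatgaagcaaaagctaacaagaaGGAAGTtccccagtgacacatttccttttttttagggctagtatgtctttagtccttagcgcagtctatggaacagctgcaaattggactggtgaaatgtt
P2ry13 promoter: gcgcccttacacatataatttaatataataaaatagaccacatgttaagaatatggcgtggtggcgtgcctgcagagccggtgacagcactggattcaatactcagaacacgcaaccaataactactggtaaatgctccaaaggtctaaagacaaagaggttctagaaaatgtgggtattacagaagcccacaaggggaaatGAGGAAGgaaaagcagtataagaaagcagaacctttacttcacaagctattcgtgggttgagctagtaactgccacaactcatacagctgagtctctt

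Both strands were searched, and the motifs overlap in their shared letters GGAAG. P2ry12 had 1 match to GGAAGT and 0 to GAGGAAG, and P2ry13 had 1 match to GAGGAAG and 0 to GGAAGT. Of 32544 promoter windows of the same length, 23.7% held GGAAGT and 13.4% held GAGGAAG, and a match is given as a description only.

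P2ry12 had the highest level of the 9 genes per kilobase of exons, and it was lower in the midbrain in both experiments. In Exp 1 it stood at 942 and 1099 CPM in Mdb and at 1722 and 1254 CPM in Str. In Exp 2 it stood at 1265 and 1747 CPM in Mdb and at 2524 and 5021 CPM in Str. Every midbrain library was below both striatal libraries of its own experiment, but the Exp 2 midbrain values overlapped the Exp 1 striatal values, and the highest value came from the shallowest library (2932 of its counts). On the log2 scale midbrain over striatum was -0.58 in Exp 1 (interval -1.03 to -0.12, unadjusted p = 0.0180 by limma), past no threshold. It was -1.24 in Exp 2 (interval -1.93 to -0.54, unadjusted p = 0.00237, adjusted p = 0.163 by limma), below the unadjusted threshold of 0.01 that the study set within an experiment. The midbrain level in Exp 2 was thus 0.424 of the striatal level. Over both experiments the log2 fold change was -0.88 ± 0.23 (SE), with an adjusted p of 0.0965 by limma, above the threshold of 0.05 used for the joint fit. Over 18 alternatives of that fit the direction was the same in 18, the adjusted p ranged from 0.00916 to 0.830, and it was below the threshold in 5.

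P2ry13, the second ADP receptor, gave the same order of regions. Its values in Exp 1 were 309 and 364 CPM in Mdb against 446 and 449 CPM in Str. In Exp 2 they were 214 and 362 CPM in Mdb against 446 and 879 CPM in Str. All 4 midbrain libraries (214 to 364 CPM) were below all 4 striatal libraries (446 to 879 CPM). The log2 fold change was -0.46 in Exp 1 (interval -0.86 to -0.06, unadjusted p = 0.0287 by limma) and -1.13 in Exp 2 (interval -1.91 to -0.36, unadjusted p = 0.00822 by limma). In the joint fit it was -0.74 ± 0.23 (SE), with an adjusted p of 0.161.

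Gpr34 (chrX:13632089-13640858), a lysophosphatidylserine receptor of the same receptor branch that is enriched in microglia, gave no order of the regions in Exp 1 and was lower in the midbrain in Exp 2. It measured 54.4 and 90.6 CPM in Mdb and 105 and 32.3 CPM in Str in Exp 1, where the striatal libraries enclosed the midbrain ones. In Exp 2 it measured 25.2 and 132 CPM in Mdb and 226 and 238 CPM in Str. Here the midbrain libraries were both lower, and they differed from each other more than the striatal pair did. The log2 fold change was 0.28 in Exp 1 (interval -0.75 to 1.31) and -2.03 in Exp 2 (interval -3.29 to -0.77, unadjusted p = 0.00450 by limma). The difference between these changes, tested as an interaction, had an unadjusted p of 0.0301 and an adjusted p of 0.860 by limma, so it did not pass the threshold. Without Exp 1 Str replicate 1 the Exp 1 change became 1.05 and without Exp 1 Str replicate 2 it became -0.59, both past an unadjusted p of 0.01, so a single library set its sign. The Exp 2 change was -0.79 without Exp 2 Mdb replicate 1 and -3.15 without Exp 2 Mdb replicate 3. In the joint fit the change was -0.78 ± 0.59 (SE), with an adjusted p of 0.583, and it ran from -0.16 (without Exp 2 Mdb replicate 1) to -1.37 (without Exp 1 Str replicate 2) when 1 library was left out.

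P2ry6 (chr7:100937630-100974649), the UDP receptor linked to microglial phagocytosis, gave small differences. It measured 217 and 206 CPM in Mdb and 222 and 257 CPM in Str in Exp 1, and 207 and 199 CPM in Mdb and 243 and 305 CPM in Str in Exp 2. All 4 midbrain libraries (199 to 217 CPM) lay below all 4 striatal ones (222 to 305 CPM), by a log2 fold change of -0.27 ± 0.13 (SE, adjusted p = 0.370 by limma) in the joint fit. The sign turned to 0.04 when libraries were scaled to 12 microglia reference genes in place of TMM. Under TMM, 0 of these 12 were higher in the midbrain in the joint fit (median log2 difference -0.27). Scaling to them therefore raises the changes of all genes by construction.

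Within Exp 1, limma called 0 of the 9 genes at an unadjusted p under 0.01, where 2.64% of 14972 genes were called in either direction, 0.548% lower and 2.09% higher in the midbrain. P2ry12, P2ry13 and Entpd1 were the 3 with an unadjusted p under 0.05, all lower in the midbrain, as were 4.03% of all genes by that rule. DESeq2 called 1, P2ry12, beside 2.565% of all genes, and the quasi-likelihood test of edgeR called 0, beside 2.672%. Without Exp 1 Str replicate 1 limma called 4 (P2ry12, P2ry13 and Entpd1 lower, Gpr34 higher), and without Exp 1 Str replicate 2 it called 3 (P2ry12, P2ry13 and Gpr34 lower). Of all genes, 16.8% were called in the first of these fits and 4.22% in the second. Within Exp 2, limma called 3 of the 8 genes that passed the filter, P2ry12, P2ry13 and Gpr34, all lower in the midbrain. DESeq2 and edgeR each called 2 of the 8, P2ry12 and P2ry13, beside 3.29% and 3.99% of all genes. Gpr34 missed the threshold with both (DESeq2 -1.58, unadjusted p = 0.132, and edgeR -1.57, unadjusted p = 0.0125). P2ry13 missed it in limma without a filter (unadjusted p = 0.0121) and after thinning to the smallest library (unadjusted p = 0.0162). Of all 13486 genes tested in Exp 2, 0.593% were called lower in the midbrain and 3.47% in either direction. At an adjusted p under 0.05 within an experiment limma called 0 of the members in both, beside 0.00668% of all genes in Exp 1 and 0.356% in Exp 2. Without Exp 2 Str replicate 3, which left a single striatal library in Exp 2, the changes were -0.77 for P2ry12, -0.69 for P2ry13 and -1.99 for Gpr34. The change of P2ry13 was -0.68 without Exp 2 Mdb replicate 1, and that of Gpr34 was -2.08 without Exp 2 Str replicate 1. That of Entpd1 was -0.90 without Exp 2 Mdb replicate 3. The 12 microglia reference genes summed in Exp 2 to 93320 to 105000 CPM in Mdb and to 125900 to 147600 CPM in Str. Scaling to them moved the median of all genes in Exp 2 to 0.52 and left 0 of 8 called, beside 7.445% of all genes. The changes on that scale were -0.74 for P2ry12, -0.65 for P2ry13 and -1.52 for Gpr34. The lower level of these 3 receptors in the Exp 2 midbrain thus kept its direction in both cases, and lost its call on the reference scaling. Placing the 2 unassigned libraries by their titles left 0 of 8 called, with -0.47 for P2ry12, -0.43 for P2ry13 and -0.80 for Gpr34. Placing them by the names of their tables gave 4, with Entpd1. Of all genes, 0.996% were called by title and 5.22% by table name. On the reference scaling 98.3% of the genes called in Exp 1 and 99.7% of those called in Exp 2 were higher in the midbrain, against 79.2% and 82.9% with TMM.

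**Figure D1:**
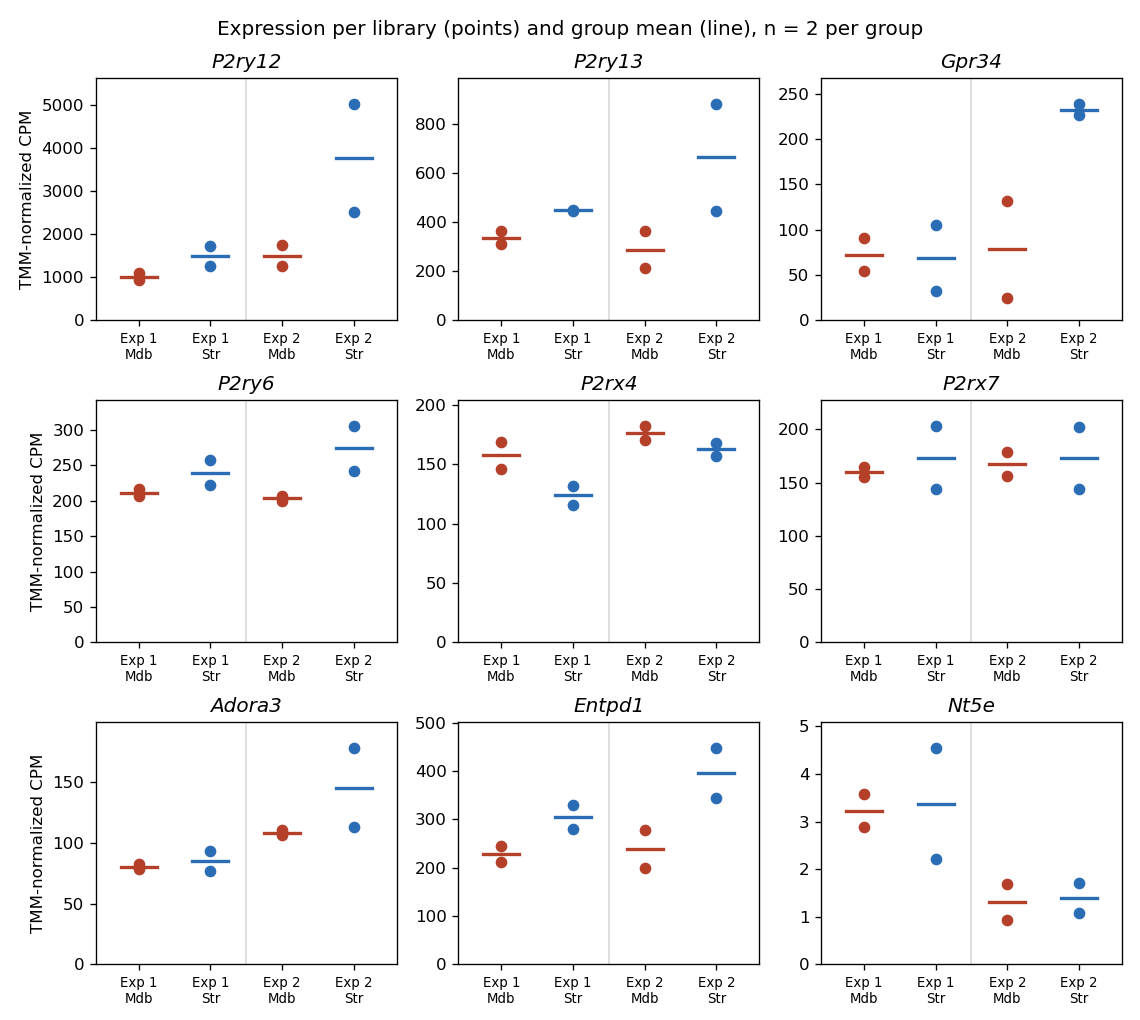
TMM-scaled CPM (y axis, linear, a scale of its own in each panel) of the 9 genes in the midbrain (Mdb, red) and striatum (Str, blue) libraries of each experiment. Points are libraries and lines are means of 2 libraries: the midbrain points of P2ry12, P2ry13, P2ry6 and Entpd1 lie below the striatal points of the same experiment, while those of P2rx4 lie above.

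The ATP-gated channels did not follow the ADP receptors. P2rx4 (chr5:122707544-122729738), a channel that is also found in lysosomes, was at 169 and 146 CPM in Mdb against 116 and 132 CPM in Str in Exp 1. In Exp 2 it was at 171 and 182 CPM in Mdb against 157 and 168 CPM in Str. The midbrain libraries were the higher ones in each experiment, but across experiments the regions overlapped. The joint change was 0.25 ± 0.13 (SE, interval -0.04 to 0.54, adjusted p = 0.416 by limma), above 0 under all 18 alternatives, with adjusted p from 0.0951 to 0.942.

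P2rx7 (chr5:122643911-122691432), the channel whose opening drives release of interleukin-1β, was close to level between the regions. It measured 164, 155, 156 and 179 CPM in the 4 Mdb libraries and 144, 203, 144 and 202 CPM in the 4 Str libraries, so the striatal libraries enclosed the midbrain ones in each experiment. The joint change was -0.04 (interval -0.38 to 0.31, adjusted p = 0.935 by limma). The interval leaves room for a change in either direction, so equal levels are not shown. The channel genes neighbour each other on chromosome 5 with 16.1 kb between them, and 119 bases of P2rx7 exons (1.99%) overlap Mir8115, which had 0 counts.

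Adora3 (chr3:105870858-105908926), a Gi-coupled adenosine receptor, was higher in Exp 2 than in Exp 1 in every library and showed little difference between regions. In Exp 1 it was at 78.5 and 82.6 CPM in Mdb and at 93.7 and 76.8 CPM in Str, with the striatal pair on both sides of the midbrain pair. In Exp 2 it was at 111 and 106 CPM in Mdb and at 114 and 178 CPM in Str. The regional change in the joint fit was -0.16 (interval -0.50 to 0.18, adjusted p = 0.685 by limma), and it was above 0 in 2 of 18 alternatives. Of its exon bases, 779 (20.9%) overlap Tmigd3 on the same strand, and reads there were left out of the counts because they belong to more than one gene. Its level is therefore a partial one.

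Entpd1 (chr19:40612366-40741602), the enzyme that removes ATP and ADP, was lower in the midbrain in both experiments. In Exp 1 it stood at 212 and 245 CPM in Mdb and at 279 and 329 CPM in Str. In Exp 2 it stood at 200 and 277 CPM in Mdb and at 345 and 447 CPM in Str. All 4 midbrain libraries (200 to 277 CPM) were below all 4 striatal libraries (279 to 447 CPM). The log2 fold change by limma was -0.45 in Exp 1 (unadjusted p = 0.0387) and -0.73 in Exp 2 (unadjusted p = 0.0214). The joint value was -0.55 ± 0.16 (SE, interval -0.89 to -0.21, adjusted p = 0.123), and none of these passed its threshold. The sign held under 18 of 18 alternatives, and the adjusted p ran from 0.0237 to 0.925.

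Nt5e (chr9:88327197-88372092), which makes adenosine from AMP, was near the limit of these libraries. It had 21 and 16 counts in Mdb and 24 and 19 counts in Str in Exp 1, and 8 and 4 counts in Mdb and 3 and 1 counts in Str in Exp 2. At this depth no regional difference was detectable, and in Exp 2 the gene did not pass the filter of the fit. The change in Exp 1 was 0.07, with an interval of -1.12 to 1.25 on the log2 scale.

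**Figure D2:**
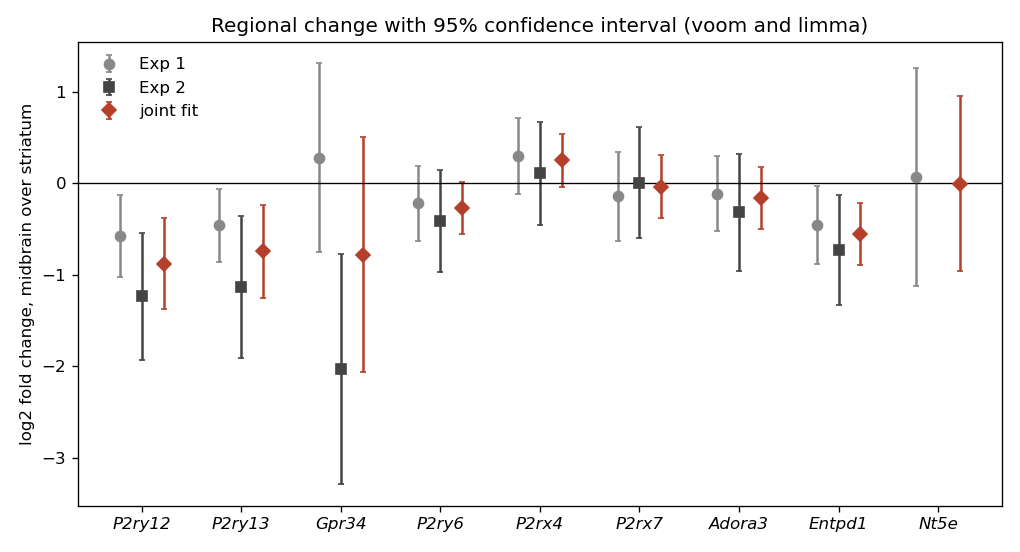
Log2 fold change of midbrain over striatum (y axis) for the 9 genes on the x axis, from each experiment (grey circles for Exp 1, black squares for Exp 2) and from the joint fit over 8 libraries (red diamonds), with bars for the 95% confidence interval of limma. Nt5e has no Exp 2 value. The joint intervals of P2ry12, P2ry13 and Entpd1 lie below 0, while the other 6 include 0.

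The joint fit over the 8 libraries, with the experiment as a covariate, called 0 of the 9 genes at an adjusted p under 0.05, where 1.06% of 14053 genes were called and 0.0854% were called lower in the midbrain. The unadjusted limma p was 0.00240 for P2ry12, 0.00420 for Entpd1 and 0.00768 for P2ry13, the members with an unadjusted p under 0.05. All 3 were lower in the midbrain, which 5.21% of all genes were by that rule. DESeq2 called 1 gene, P2ry12 (adjusted p = 0.0196), beside 3.871% of all genes. The edgeR test called 0, beside 1.686% of all genes, with an adjusted p of 0.0915 for P2ry12. Without Exp 1 Str replicate 2 limma too called P2ry12 (adjusted p = 0.0380), and without any other single library it called 0. The log2 fold change was below 0 in 8 of the 9 genes and their median was -0.27, beside 45.6% of all genes below 0 and a median of 0.04. Scaling to the 12 microglia reference genes moved the median of all genes to 0.34 and that of the 9 genes to 0.04, so that the median of the 9 stayed the lower one. On that scale P2ry12 changed by -0.55, P2ry13 by -0.43, Gpr34 by -0.46, Entpd1 by -0.24 and P2rx4 by 0.56.

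In 5 genes the regions did not overlap within either experiment. P2ry12, P2ry13, P2ry6 and Entpd1 were lower in the midbrain each time, a pattern that 6.03% of all genes showed. P2rx4 was higher each time, as were 9.05% of all genes. A two-sided exact permutation test of the region labels within experiments cannot go below p = 0.0556 with its 36 labelings. Groups that do not overlap in 1 direction reach that value by construction, so it adds nothing for these 5 genes. The exact test gave p = 0.333 for Gpr34, 0.278 for Adora3, 0.778 for P2rx7 and 0.889 for Nt5e.

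The level of P2ry12 also differed between the experiments. At the same region it was higher in Exp 2 by 0.90 on the log2 scale (interval 0.40 to 1.40, adjusted p = 0.0320 by limma), 1.87 times the Exp 1 level. It was the 1 gene of the 9 past an adjusted p of 0.05, where 10.5% of all genes were called and 4.72% were called higher in Exp 2. Without either Exp 1 midbrain library, Exp 1 Str replicate 1, Exp 2 Mdb replicate 3 or Exp 2 Str replicate 3, limma called 0 of the 9, as it did on the reference scaling. It called 2 without Exp 2 Mdb replicate 1 (with Gpr34) or Exp 2 Str replicate 1 (with Adora3), and so did edgeR (with Adora3). For these alternatives no share of all genes is given, so their counts are not read as a result about the members. In the main fit P2ry13 differed by 0.07 (interval -0.44 to 0.58), Adora3 by 0.52 (adjusted p = 0.0542), Gpr34 by 0.83 (adjusted p = 0.368), P2rx4 by 0.26 (adjusted p = 0.214) and Nt5e by -1.07 (adjusted p = 0.164). The experiment and any batch that went with it cannot be told apart. The regional change itself did not pass the interaction test in any of the 9 genes (0 at an adjusted p under 0.05 by limma, as by edgeR). Limma called 0 of all 14053 genes at that threshold, so this 0 is not particular to the members. At an unadjusted p under 0.05 limma called 1, Gpr34, beside 5.51% of all genes.

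Ratios of counts of 2 genes in the same library depend on no scaling. These were chosen after the values were seen and are given as a description. P2ry12 over P2ry13 was 3.05 and 3.02 in Mdb and 3.87 and 2.79 in Str in Exp 1, and 5.90 and 4.83 in Mdb and 5.66 and 5.71 in Str in Exp 2. This ratio separated the experiments (2.79 to 3.87 against 4.83 to 5.90) and not the regions. Entpd1 over P2rx4 was 1.17 to 1.68 in the 4 Mdb libraries and 2.19 to 2.66 in the 4 Str libraries, with no overlap of the regions in either experiment. P2ry12 over P2rx4 ranged from 5.58 to 9.60 in Mdb and from 9.53 to 29.9 in Str, and within each experiment the midbrain was lower.

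**Figure D3:**
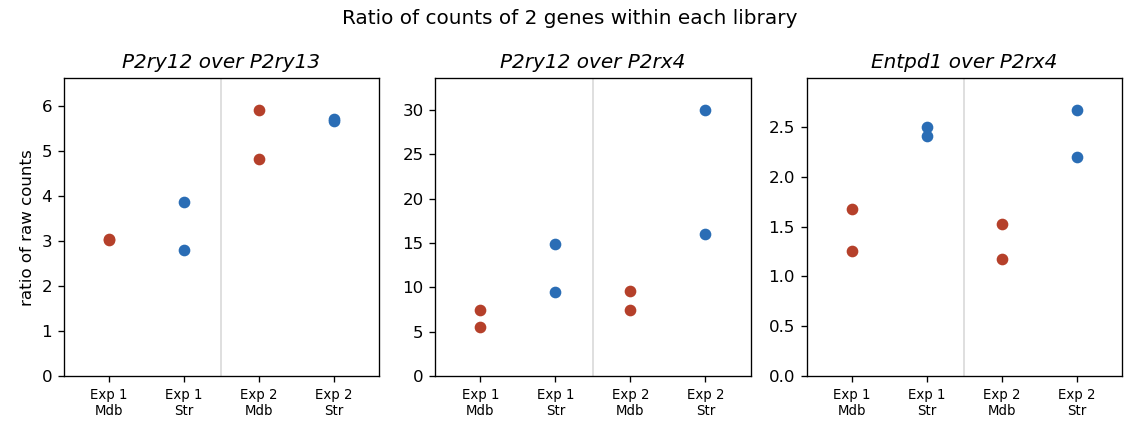
Ratio of the raw counts of 2 genes in each library (y axis, no unit, linear from 0), with midbrain (Mdb) in red and striatum (Str) in blue. P2ry12 over P2ry13 divides the libraries by experiment, and Entpd1 over P2rx4 divides them by region (1.17 to 1.68 in Mdb, 2.19 to 2.66 in Str).

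Per kilobase of exons, P2ry12 led with a mean of 765 ± 526 CPM per kb (SD, n = 8), and ranked between 15 and 113 among all genes in CPM across libraries. P2ry13 followed with 172 ± 78.0, then P2ry6 with 80.4 ± 12.2, Gpr34 with 54.0 ± 39.2, Entpd1 with 52.3 ± 14.5, P2rx7 with 28.2 ± 3.98, Adora3 with 28.2 ± 8.83, P2rx4 with 22.1 ± 3.17 and Nt5e with 0.271 ± 0.146 CPM per kb. P2ry12 was above P2ry13, and P2ry13 above P2ry6, in 8 of 8 libraries. Gpr34 and Entpd1, and likewise P2rx7 and Adora3, traded places (4 of 8 libraries each way) and have no order on this scale. The libraries were made from the 3′ end of transcripts, where reads do not grow with length, so the division favours short genes. Without it the mean was 292 CPM for Entpd1, 232 CPM for P2ry6, 168.5 CPM for P2rx7, 155 CPM for P2rx4, 113 CPM for Gpr34 and 105 CPM for Adora3. The order of these genes thus rests on the division, while P2ry12, P2ry13 and Nt5e kept their places. Adora3 was divided by all its exon bases, although reads on 779 of them were left out of the counts.

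Among 7037 genes that reached 10 counts in each of the libraries, the 3 non-member genes whose log2 profile over the 8 libraries, centred within experiments, was nearest to that of P2ry12 were 9330151L19Rik, Fzd4 and Fam102b. The root mean square difference was 0.100, 0.148 and 0.165, beside a median of 0.586 over all genes. Their levels were 5.72 to 9.25 CPM in Mdb and 9.56 to 22.3 CPM in Str for 9330151L19Rik, 10.2 to 16.9 and 14.5 to 37.7 for Fzd4, and 103 to 183 and 151 to 377 for Fam102b, and none passed the joint test (adjusted p from 0.266 to 0.337 by limma). P2ry13, at 0.147, was as near as these. The other genes of the set were farther, with Entpd1 at 0.300, Adora3 at 0.386, P2ry6 at 0.425, P2rx7 at 0.543, P2rx4 at 0.655 and Gpr34 at 0.733. Nearness in 8 libraries, which share depth and cell makeup, is given as a description.

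The rest of the nucleotide and adenosine system was followed through 50 further genes in 7 lists. In Exp 1, 36 were tested, 2 were higher in the midbrain (p under 0.01) and 0 lower. In Exp 2, 33 were tested, 3 were higher and 0 lower, where 2.88% of all genes were called higher. In the joint fit limma called 0 of 34, the median change was 0.31, and 13 were below 0. The 2 genes of Exp 1 were Gpr17 and Cd38. Gpr17, a receptor of oligodendrocyte precursors, had 84 and 87 counts in Mdb and 35 and 50 in Str (log2 fold change 1.23, unadjusted p = 0.00386 by limma), and 0 counts in all 4 libraries of Exp 2. The oligodendrocyte precursor markers summed to 235 to 361 CPM in Exp 1 and to 85.6 to 178 CPM in Exp 2, and their part in the Gpr17 counts was not tested. Cd38, which breaks down NAD at the cell surface, was at 15.7 and 17.3 CPM in Mdb and at 7.75 and 1.98 CPM in Str in Exp 1 (log2 fold change 2.16, unadjusted p = 0.00207). In Exp 2 it was at 51.7 and 18.0 CPM in Mdb and at 6.16 and 11.99 CPM in Str, and in the joint fit at a log2 fold change of 2.14 with an adjusted p of 0.0782 by limma.

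The 3 genes called higher in the Exp 2 midbrain were Gpr171, Dpp4 and Bst1. Gpr171, a relative of the P2Y receptors found in T cells, had 45 and 31 counts in Mdb and 0 in both Str libraries (unadjusted p = 0.000341 by limma), at least 8.92-fold higher against 3 counts over the striatal group. Dpp4 had 65 and 21 counts against 2 and 0. Its unadjusted limma p was 0.00509. Bst1, a relative of Cd38 on myeloid cells, had 157 and 82 counts against 18 and 0, and its unadjusted limma p was 0.00521. The second Str count of each gene is from Exp 2 Str replicate 3, a library of 575709 counts. There 3 counts stood for 5.21 CPM, so a count of 0 does not show absence. The T and NK cell markers in Exp 2 summed to 59.2 to 78.4 CPM in Mdb and to 6.85 to 15.2 CPM in Str, and the neutrophil markers to 3507 to 6052 and 508 to 526 CPM. Their part in these differences was not tested.

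The most abundant gene of each list was not called in any fit. These were P2ry14, a UDP-glucose receptor (10.4 to 21.3 CPM in Mdb, 7.46 to 15.7 in Str), the channel P2rx1 (8.10 to 13.1 and 6.85 to 17.4 CPM) and the adenosine receptor Adora1 (31.1 to 89.0 and 22.3 to 84.3 CPM). Enpp2, which releases lysophosphatidic acid, had 94.6 to 315 CPM in Mdb and 37.7 to 194 CPM in Str. Slc29a3, a lysosomal nucleoside transporter, had 391 to 570 and 427 to 941 CPM. Slc17a9, which loads ATP into vesicles, had 19.3 to 32.4 and 19.6 to 35.0 CPM. Gnai2, the Gi subunit through which P2ry12 signals, had 1345 to 1738 and 1106 to 1456 CPM, with a joint change of 0.19 (adjusted p = 0.493 by limma). Its ranges in the regions overlapped.

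**Figure D4:**
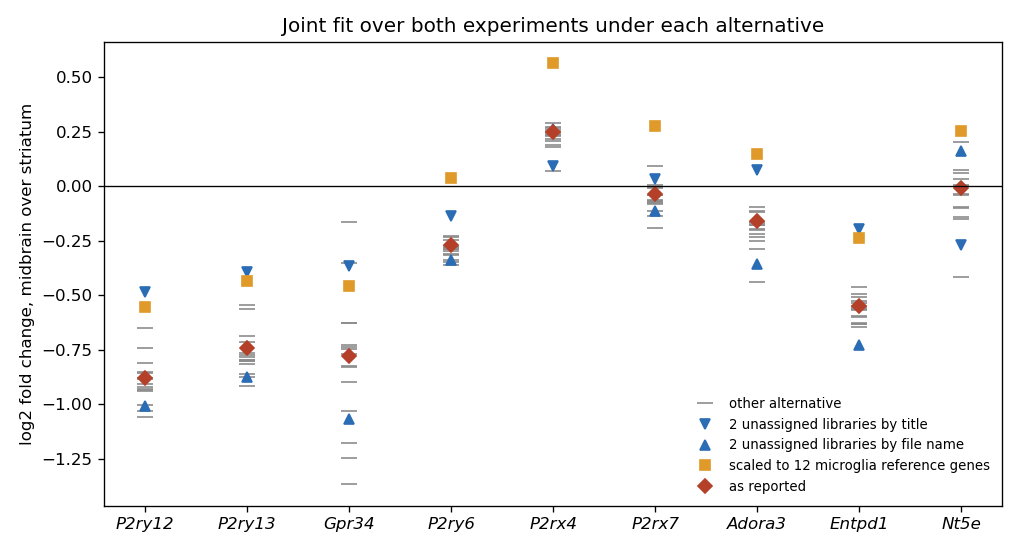
Log2 fold change of midbrain over striatum in the joint fit (y axis) for the 9 genes on the x axis, under TMM scaling (red diamonds), scaling to 12 microglia reference genes (orange squares), both placements of the 2 unassigned libraries (blue triangles) and the other alternatives (grey bars). P2ry12, P2ry13, Gpr34 and Entpd1 lie below 0 throughout and P2rx4 above, while P2ry6, P2rx7, Adora3 and Nt5e fall on both sides.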

How the data were processed

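Microglia were isolated with CD11b beads, and polyA RNA was sequenced by MARS-seq adapted to bulk samples. The submitters' processing notes name FastQC, STAR 2.5.3a, featureCounts 1.6.0 and GRCm38. The authors deposited raw read counts per gene, not normalized, counted without strand and without reads shared by genes. Use of molecular identifiers is not given in the sources used here, so counts may hold copies.

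Of the 53715 identifiers, 53620 matched a symbol. The 2 libraries with conflicting regions stayed unassigned. Counts were TMM-scaled (edgeR 4.0.16) and fitted with voom and limma 3.58.1 (R 4.3.3) per experiment (unadjusted p under 0.01, as in the study) and jointly with experiment as covariate (Benjamini-Hochberg adjusted p under 0.05 over all genes). A gene was left out where over 50% of a fit's libraries held fewer than 6 of its counts. The main test is the study's, and edgeR's quasi-likelihood test and DESeq2 1.42.0 were alternatives. Scripts were tested on simulated data. The members and lists were chosen with earlier results of these data known. Text names the members, listed genes past a threshold or highest in a list, and the 3 profiles nearest P2ry12. Same-numbered libraries did not deviate together (correlation -0.034 in Exp 1 and 0.078 in Exp 2), so numbers were not taken as pairs.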

Additional observations from a re-analysis of the deposited data

Results flagged for a closer look

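The 2 libraries of Exp 2 whose region is in doubt were used in no main comparison, and both held the receptor transcripts above the limit of 3 counts. In the library titled midbrain, 8 of the 9 genes were above 3 counts, all but Nt5e with 1 count. In the library titled striatum, all 9 genes were, Nt5e with 15 counts.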

How the results depend on the processing

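In Exp 1 DESeq2 and the fit without a filter each called 1 of 9 genes (P2ry12), and leaving out 1 library, with the lone library left in its region assumed to vary like the others, gave 0 to 4. In Exp 2, where 3 of 8 were called, requiring 10 counts in every library left 1 (P2ry12), the reference scaling 0 and placement of the unassigned libraries by title 0. Of all genes, these fits called 2.896%, 7.445% and 0.996% in that order. Leaving out 1 library moved the Exp 2 change of P2ry12 to -0.77 (without Exp 2 Str replicate 3) and to -1.79 (without Exp 2 Str replicate 1). The joint count of 0 became 1 (P2ry12) with DESeq2 and without a filter, 2 with the replicate block (P2ry12 and P2ry13), 3 with placement by the name of the deposited table (with Entpd1), and 0 to 1 when 1 library was left out. The block takes same-numbered libraries of an experiment as pairs. The labels do not give that pairing, so its calls are a description only. The block raised the Exp 2 count to 4, as the calls over all genes went from 468 to 988. The 1 gene that differed between experiments became 2 with edgeR, 0 with the reference scaling, and 0 to 2 when 1 library was left out. Shares of all genes are not given for those counts. The interaction count stayed 0 in all 10 alternatives run, where the main test called 0 of all 14053 genes. The joint sign of P2rx7 turned with the reference scaling (0.27), with 10 counts in every library (0.0062), without Exp 1 Str replicate 2 (0.092, within a range of -0.19 to 0.092 over the libraries left out) and by title (0.035), that of Adora3 with the reference scaling (0.15) and by title (0.075), and that of P2ry6 with the reference scaling (0.039). The sign of Nt5e, at 1 to 24 counts, turned with edgeR (0.0024), DESeq2 (0.0074), the reference scaling (0.25), placement by table name (0.16) and without 1 library (-0.42 to 0.20, above 0 in 4). For the changes on leaving out a library or a filter the number of libraries or genes differs by construction. For the others the cause was not tested. Over all genes the 149 joint calls became 237 with edgeR, 544 with DESeq2, 534 with the reference scaling, 277 without a filter, 307 with the block, 57 with 10 counts in every library, 0 by title, 442 by table name and 0 to 238 when 1 library was left out.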

Other observations

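In the library titled midbrain, P2ry12 stood at 3451, P2ry13 at 619, Gpr34 at 416, P2ry6 at 240, Entpd1 at 421, P2rx4 at 135, P2rx7 at 152 and Adora3 at 144 CPM, scaled over all 10 libraries. In the library titled striatum the same genes stood at 1459, 287, 133, 184, 185, 198, 132 and 75.1 CPM. Their region was not inferred from these values.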
